A study of Mus musculus and Acomys cahirinus with 2 samples.

Results

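The cells described here are the barcodes that carried the transcripts Cytl1, Chad and Comp in adult ear skin, listed under the working name of ear cartilage chondrocytes. A barcode is the tag of a droplet, and a UMI (unique molecular identifier) counts a captured RNA molecule. Barcodes were kept from 1000 UMIs and 200 genes, with at most 20% mitochondrial UMIs in Mus. A member then needed at least 5 UMIs of Cytl1, Chad and Comp together, making up at least 10 per 10000 of its UMIs. In all, 293 of 16278 barcodes met the rule. They were 167 of 9443 in the Mus library (1.77%, exact 95% interval 1.51 to 2.06) and 126 of 6835 in the Acomys library (1.84%, 1.54 to 2.19).

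The study measured ear skin of adult Mus musculus, the house mouse, and adult Acomys cahirinus, the Egyptian or Cairo spiny mouse, whose punched ears can close by regrowth. Each species had 1 library of droplet 3′ single-cell RNA sequencing. Both libraries were labelled day 0, while the series text calls the ear tissue injured; strain, sex, number of animals and any agent are not given in the sources used here. With 1 library per species there is no test between them, so intervals cover counting error only, and species, animal, depth and gene annotation cannot be told apart.

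The Mus library held 130039670 UMIs and the Acomys library 71042559. Barcodes past the limits had a median of 9853 UMIs in Mus and 5260 in Acomys. The 2 libraries shared 68 of these barcodes, and no barcode was a member in both. Levels are given as CPM, a gene's UMIs per 1000000 UMIs of the 16070 gene symbols that both annotations list. Because a UMI marks the 3′ end of a molecule, a level does not scale with gene length.

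The external ear is stiffened by a sheet of elastic cartilage. Chondrocytes, its only resident cells, secrete type II, IX and XI collagens, the large proteoglycan aggrecan with its link protein, and elastin, and they depend on the transcription factor Sox9. Mouse ear chondrocytes are also known for storing lipid, and a thin perichondrium of fibroblast-like cells covers the sheet.

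The markers split the Mus members into groups that the working name does not cover. Of the 167 Mus members, 101 carried at least 3 UMIs of 9 endothelium markers (Pecam1, Cdh5, Kdr, Flt1, Emcn, Plvap, Tie1, Egfl7 and Cldn5), and 95 carried at least 10. These 101 endothelial-marker members had 0 Chad UMIs, and 1 of them had a UMI of any of the 18 cartilage markers other than the rule genes. The other 66 Mus members, called the remaining members below, included 61 with 0 endothelium-marker UMIs, and 63 had another cartilage marker. In Acomys 2 members carried at least 3 endothelium-marker UMIs, and 124 remained, of which 112 had 0 endothelium-marker UMIs and 110 had another cartilage marker. The working name therefore goes against the markers of 101 Mus members. For the remaining members it fits the summed cartilage markers given below, but not each member was shown to be a chondrocyte. Another cartilage marker was also found in 1643 of 9276 Mus and 2331 of 6709 Acomys non-member barcodes. Fibroblast markers were in 59 of 66 Mus and 119 of 124 Acomys remaining members. This division was chosen after the values had been seen, so comparisons are given for all members and for the remaining members.

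**Figure D1:**
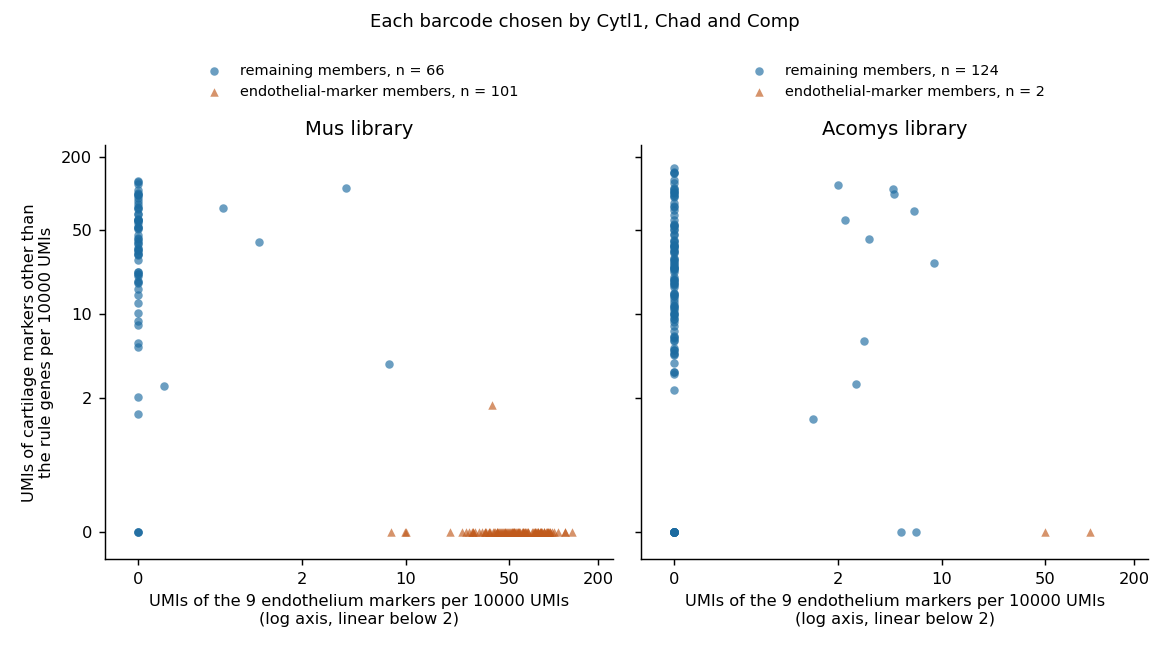
Each point is a member; the x axis gives UMIs of the 9 endothelium markers and the y axis UMIs of the 18 cartilage markers other than Cytl1, Chad and Comp, both per 10000 UMIs of that barcode on log axes that are linear below 2. The 101 Mus endothelial-marker members (triangles) lie along the bottom at the right, with 1 above 0, while the 66 Mus and 124 Acomys remaining members (circles) lie mostly at 0 on the x axis.

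The rule genes are described without a test, since they chose the members. Cytl1, a small secreted protein of cartilage, lies at chr5:37735519-37739820 of mm10. Chad (chondroadherin, which ties chondrocytes to collagen) lies at chr11:94565047-94569127, and Comp (cartilage oligomeric matrix protein, a collagen-binding bridge protein) at chr8:70373548-70382066. Cytl1 led in both libraries, at 36278 CPM in the 66 Mus and 22554 CPM in the 124 Acomys remaining members. Its level per member ran from 3.54 to 1009 per 10000 UMIs in Mus, with a median of 234. In Acomys it ran from 0 to 808 with a median of 136, and 6 members had none. The per-member ranges of Cytl1 thus overlapped between the libraries.

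Chad was the rule gene whose level differed most between the libraries. Among remaining members, 52 of 66 in Mus and 16 of 124 in Acomys had a Chad UMI, and the summed level was 3005 against 84.6 CPM. Comp went the other way, with 45 of 66 Mus and 114 of 124 Acomys remaining members holding a UMI, at 2242 and 3162 CPM. Thinned to 1000 UMIs per barcode, 65.2% of Mus and 6.86% of Acomys members had Chad, and 53.4% and 79.7% had Comp. Chad and Comp were found together in 41 of 66 Mus and 15 of 124 Acomys members, and 99 Acomys members had Comp and no Chad. At the rule's edge, 22 Mus and 8 Acomys members held 5 or 6 UMIs of the rule genes. Just outside it, 13 Mus and 18 Acomys barcodes held 3 or 4 UMIs at over 10 per 10000, and 7 Mus and 1 Acomys barcodes held at least 5 UMIs at 5 to 10 per 10000.

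Cytl1 in Mus endothelial-marker barcodes lay mostly in the members, with a lower level outside them. Among all barcodes past the limits, 361 in Mus and 375 in Acomys carried at least 3 endothelium-marker UMIs at 10 or more per 10000. Cytl1 stood at 1800 CPM (95% interval 1709 to 1895) in the Mus set and at 119 CPM (92.4 to 150) in the Acomys set. A Cytl1 UMI was found in 159 of the 361 Mus and 39 of the 375 Acomys barcodes. At 1000 UMIs per barcode the shares were 35.1% and 6.73%, against 1.94% and 1.93% in the barcodes that were neither members nor endothelial-marker. In the Mus set 104 barcodes held at least 5 Cytl1 UMIs and 99 were members. The set was chosen by endothelium markers alone. The members in it were chosen on the rule genes, and the 262 Mus barcodes outside them held 152 of the set's 1461 Cytl1 UMIs. There Cytl1 stood at 278 CPM (236 to 326), with a UMI in 60 of 262, and in the 373 Acomys barcodes outside the members at 96.8 CPM (73.1 to 126), with a UMI in 37. Leaving out the members lowers these values by construction.

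**Figure D2:**
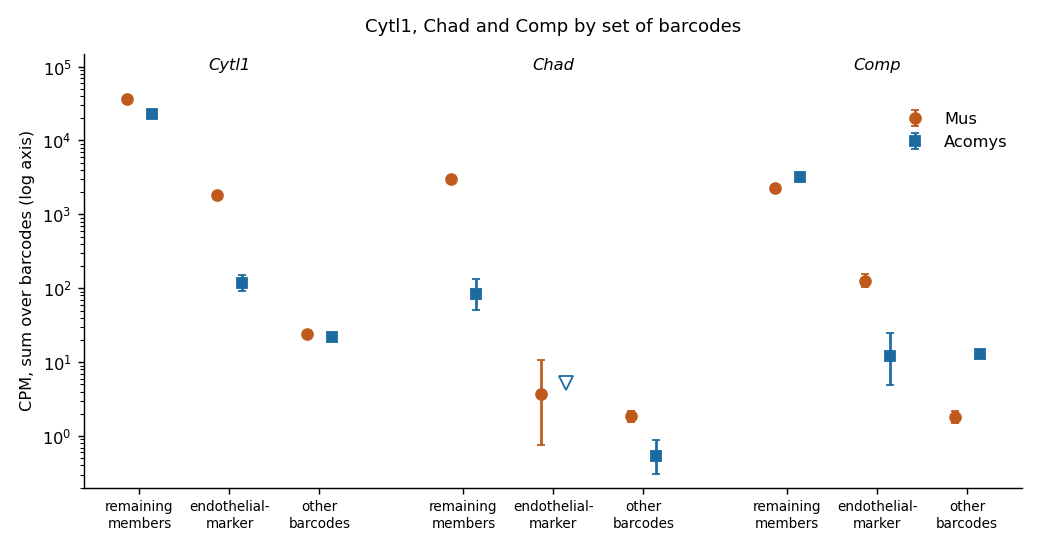
CPM (log axis) of Cytl1, Chad and Comp in remaining members, in all endothelial-marker barcodes and in other barcodes, with circles for Mus, squares for Acomys and bars for exact 95% Poisson intervals of counting error. The open triangle marks Chad with 0 UMIs in Acomys endothelial-marker barcodes, drawn at the level of 3 counts. Cytl1 is at 1800 CPM in Mus and 119 CPM in Acomys endothelial-marker barcodes, members among them included.

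The Mus remaining members had 8.28 Chad UMIs and 16.4 UMIs of other cartilage markers for every 100 Cytl1 UMIs. The endothelial-marker members held 1352 Cytl1 UMIs, 0 of Chad and 1 of the other cartilage markers. Cytl1 and Chad chose the members and the division was made after seeing the values, so these counts only describe the 101 barcodes. Comp was present in 24 of them, at 2.74 UMIs per 100 of Cytl1.

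The 101 Mus endothelial-marker members, of which 99 also passed 10 endothelium-marker UMIs per 10000, differed from the 262 endothelial-marker barcodes outside the rule in genes that the rule did not use. The following CPM values are given for members and then for the others. Vwf, the clotting factor of endothelial storage granules, stood at 1374 and 365. Vcam1, an adhesion molecule for leukocytes, stood at 126 and 3.66, and Mgp, an inhibitor of calcification, at 3776 and 843. Ccl21a, the chemokine of lymphatic vessels, was at 14.0 CPM (4 UMIs) in the members and 17176 CPM (9377 UMIs) in the others. Lyve1 and Mmrn1, markers of lymphatic endothelium, had 0 UMIs in the members and 107 and 218 UMIs in the others. These genes were part of the extremes of the comparison, which were picked by size, and were named after their values were seen. Others in each direction were left out, such as Acta2, a marker of pericytes and smooth muscle, at 227 and 12.8 CPM. Pericyte and smooth muscle markers had a UMI in 41 of the 101 members.

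In the remaining members of both libraries, cartilage genes stood far above their level in all non-member barcodes. The 18 cartilage markers other than the rule genes summed to 5941 CPM in Mus and 5054 CPM in Acomys, against 45.7 and 132 CPM in all non-member barcodes. In Mus 15 of the 18 had UMIs, with Clec3a, Matn1 and Scrg1 at 0. In Acomys 14 of the 17 with a listed symbol had UMIs, with Col9a1, Matn1 and Ucma at 0. The same markers summed to 55.6 CPM in 51 Mus and 1801 CPM in 24 Acomys fibroblast-rich barcodes outside the members. Fibroblast-rich barcodes were non-members with at least 5 UMIs of Col1a1, Col1a2 and Col3a1 together, at 10 or more per 10000. Of the 24 Acomys barcodes, 13 had a UMI of the other cartilage markers, 4 had at least 3 and 3 had at least 10. Their median was 3.54 and their highest value 119 per 10000. The gap between the sums was narrower in Acomys than in Mus, but the Acomys fibroblast-rich sum was 73 UMIs, held unevenly. Across all genes, 20.5% of 3258 measured genes in Mus and 20% of 3518 in Acomys were at least 2-fold higher in the remaining members than in other barcodes, and 4.48% and 4.83% were at least 2-fold lower. A gene counted as measured from 10 CPM and 10 UMIs. For all members the higher shares were 25.8% in Mus and 20.1% in Acomys, and the lower shares 5.47% and 4.66%. The Mus endothelial-marker members gave 29.2% of 5173 genes higher and 5.14% lower. All 11 measured cartilage collagen genes of Mus and all 9 of Acomys were higher in the remaining members, as were 15 of 16 and 11 of 11 proteoglycan and link protein genes. These comparisons describe the chosen cells and are no test, since the same cells' RNA chose them.

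The genes that led in both libraries beside the rule genes were Msmp, Snorc, Acan, Col9a3, Col9a2, Col11a1, Col8a1, Notum, Gdf5, Colec12, Myoc and Hrct1. Msmp, a small secreted cysteine-rich protein, reached 5087 CPM in Mus and 10954 CPM in Acomys, against 2.06 and 12.8 CPM in other barcodes. It was uneven among members, with a UMI in 28 of 66 Mus and 61 of 124 Acomys remaining members and up to 583 and 894 UMIs per 10000 in a single member. Snorc, a membrane proteoglycan of cartilage, was at 2105 and 2249 CPM. Col8a1, a short-chain network collagen, was at 3515 and 561 CPM, and Myoc, the secreted glycoprotein myocilin, at 1193 and 165 CPM. Gdf5, a BMP-family ligand of joint and cartilage development, was at 247 and 294 CPM, and 13 Mus and 42 Acomys members held it.

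Several things other than cartilage moved with the members, and their part in the results was not tested. Keratinocyte markers summed to 37442 CPM in Mus and 44147 CPM in Acomys remaining members, against 107236 and 115753 CPM in other barcodes and 93971 and 86216 CPM in the free RNA of barcodes with 1 to 10 UMIs. All 15 markers had UMIs in Mus and all 14 listed in Acomys, and every remaining member held some. If all of it were free RNA, that would be 39.8% of the members' UMIs in Mus and 51.2% in Acomys. Fibroblast markers summed to 13654 CPM in Mus, with all 12 present, and to 8042 CPM in Acomys, with Dpep1, Dpt and Pdgfra at 0 among 10 listed, against 278 and 238 CPM in other barcodes. They were found in 59 of 66 and 119 of 124 remaining members. Perichondrium and tendon markers were at 4009 CPM in Mus over 10 symbols, with Kera at 0. The Acomys list has 8 of them, without Prg4 and Ly6a. Over those 8 the sums were 1812 CPM in Mus, of which Fmod made up 1703, and 200.4 CPM in Acomys, with Gli1, Kera and Mkx at 0. Endothelium markers were at 34.4 and 53.4 CPM in the remaining members. Mitochondrial UMIs had a median of 5.51% in Mus members and 3.01% in other Mus barcodes; the Acomys gene list holds 0 mitochondrial genes. Members were also shallower than other barcodes, with remaining members at a median of 2683 UMIs in Mus and 2086.5 in Acomys.

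Counts of differing genes between the libraries were not alike over all members and over the remaining members. Over all members, 13.5% of 6439 measured genes stood at least 2-fold above Mus in the Acomys library and 41.9% at least 2-fold below, with a median log2 ratio of -0.56. Over the remaining members, 22.5% of 3925 genes were higher (883 genes) and 26.3% lower (1033 genes), with a median of 0.07. Leaving out the endothelial-marker members also took the Mus UMIs of shared symbols from 460405 to 174376, so fewer genes were measured. A gene measured through a single library had to differ, so these are descriptions of both libraries. Much of the difference was shared with the rest of the skin: 799 of the 1033 lower genes (77.3%) and 464 of the 883 higher genes (52.5%) were also at least 2-fold lower or higher in the other barcodes. Of the 219 measured genes of the 16 lists used below, 44 were higher and 84 lower in Acomys remaining members, and 25 and 52 of them also in the other barcodes. The Acomys list also names 8324 genes by an identifier alone, so a symbol at or near 0 there may be counted in part under such an identifier, which was not tested. The ratio in other barcodes is therefore given beside many of the ratios below. A gene given without it may share its difference with the other barcodes.

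**Figure D3:**
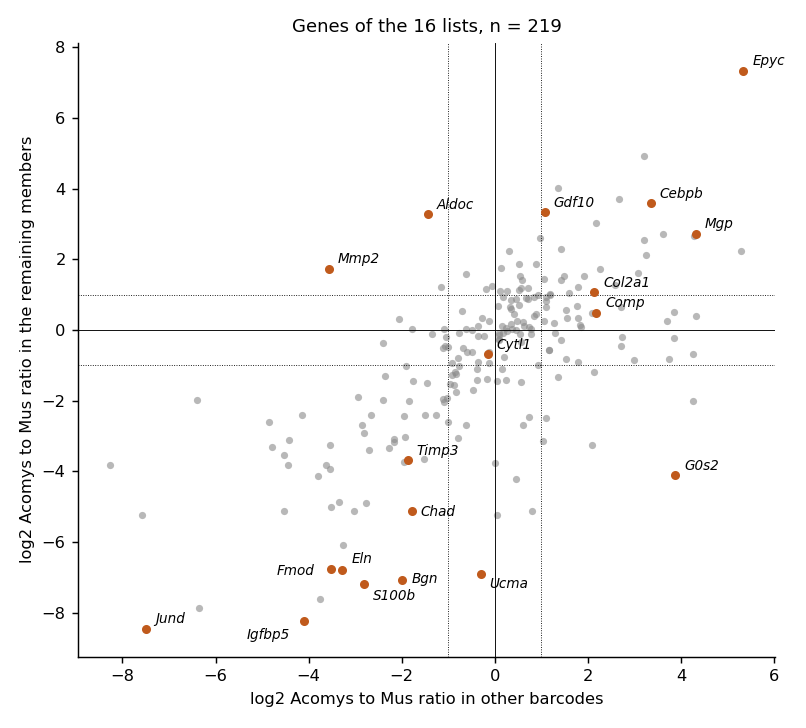
Each point is 1 of the 219 measured genes of the 16 lists; the x axis gives the log2 ratio of Acomys to Mus CPM in other barcodes and the y axis the same ratio in the remaining members, with 0.5 counts added to each sum and dotted lines at 2-fold. Many points lie along the diagonal; Ucma, Bgn and G0s2 lie well below it, and Mmp2 and Aldoc above it.

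The list of cartilage collagens lay close to all genes in the remaining members, while single chains differed in both directions. Of 10 measured genes of this list, 2 stood at least 2-fold above Mus and 3 below, with a median log2 ratio of -0.02. Beside this, all genes gave 22.5% higher, 26.3% lower and 0.07. The 2 higher genes, Col2a1 and Col9a2, were also at least 2-fold higher in other barcodes, beside 52.5% of all higher genes. Of the 3 lower genes, 1 was also lower there, beside 77.3% of all lower genes. Col2a1, the main fibril collagen, was at 109 CPM in Mus (12 members) and 232 CPM in Acomys (34 members), a ratio of 2.13 (1.24 to 3.81). Col11a1, which sets fibril width, was at 315 and 196 CPM, a ratio of 0.621 (0.408 to 0.94), and Col11a2 at 103 and 120 CPM. Among the chains of type IX collagen, which decorates the fibril, Col9a2 stood at 161 and 338 CPM and Col9a3 at 407 and 637 CPM. Col9a1 differed from its partner chains: 8 Mus members held 13 UMIs (74.6 CPM) and Acomys members held 0. With 3 counts in place of the 0, the level was 5.58-fold lower in Acomys. Such 3-count values leave out counting error in the other library, so they are no interval limits. In other barcodes Col9a1 was near 0 in both libraries, at 0.0776 and 0.132 CPM. The type VI chains Col6a1 and Col6a2, which surround the cell, had ratios of 0.951 (0.701 to 1.29) and 1.02 (0.74 to 1.41). Over all members, 6 of 10 collagen genes were higher in Acomys and 1 lower, with a median of 1.35. All genes there gave 13.5% higher, 41.9% lower and -0.56.

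Of 17 measured proteoglycan and link protein genes, 9 were at least 2-fold lower and 2 higher in the remaining members, with a median log2 ratio of -2.41. Beside this, all genes gave 26.3% lower, 22.5% higher and 0.07. Over all members 9 were lower and 6 higher, with a median of -1.04, beside 41.9%, 13.5% and -0.56. Acan, the core protein of aggrecan, was at 470 CPM in Mus and 267 CPM in Acomys, a ratio of 0.568 (0.4 to 0.802). Hapln1, the link protein that locks aggrecan to hyaluronan, was at 109 CPM (17 members) and 17.8 CPM (4 members). Snorc was at nearly the same level, with a ratio of 1.07 (0.932 to 1.23).

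The widest gaps were among the small leucine-rich proteoglycans, which coat collagen fibrils. Bgn (biglycan) was at 3286 CPM in 60 of 66 Mus members and at 22.3 CPM in 5 of 124 Acomys members, a ratio of 0.00678 (0.00219 to 0.0159), against 0.25 in other barcodes. Fmod (fibromodulin) was at 1703 CPM in 51 members and 13.4 CPM in 3, a ratio of 0.00784, against 0.0775 in other barcodes. Omd, Ogn and Prelp also stood lower in Acomys, with ratios of 0.0478, 0.114 and 0.175. Dcn (decorin) differed little, at 7409 and 5833 CPM. Epyc (epiphycan) was the reverse case, with 0 UMIs in Mus and 104 UMIs in 51 Acomys members (463 CPM). That level was 26.9-fold higher with 3 counts in place of the 0, against 50.1-fold in other barcodes. Cspg4, a membrane chondroitin sulfate proteoglycan, was at 74.6 and 365 CPM, a ratio of 4.90 (2.71 to 9.59) against 1.23 in other barcodes. In fibroblast-rich barcodes outside the members, 51 in Mus and 24 in Acomys, Bgn stood at 753 and 24.7 CPM, so a gap was present there too. The Acomys value there was 1 UMI.

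**Figure D4:**
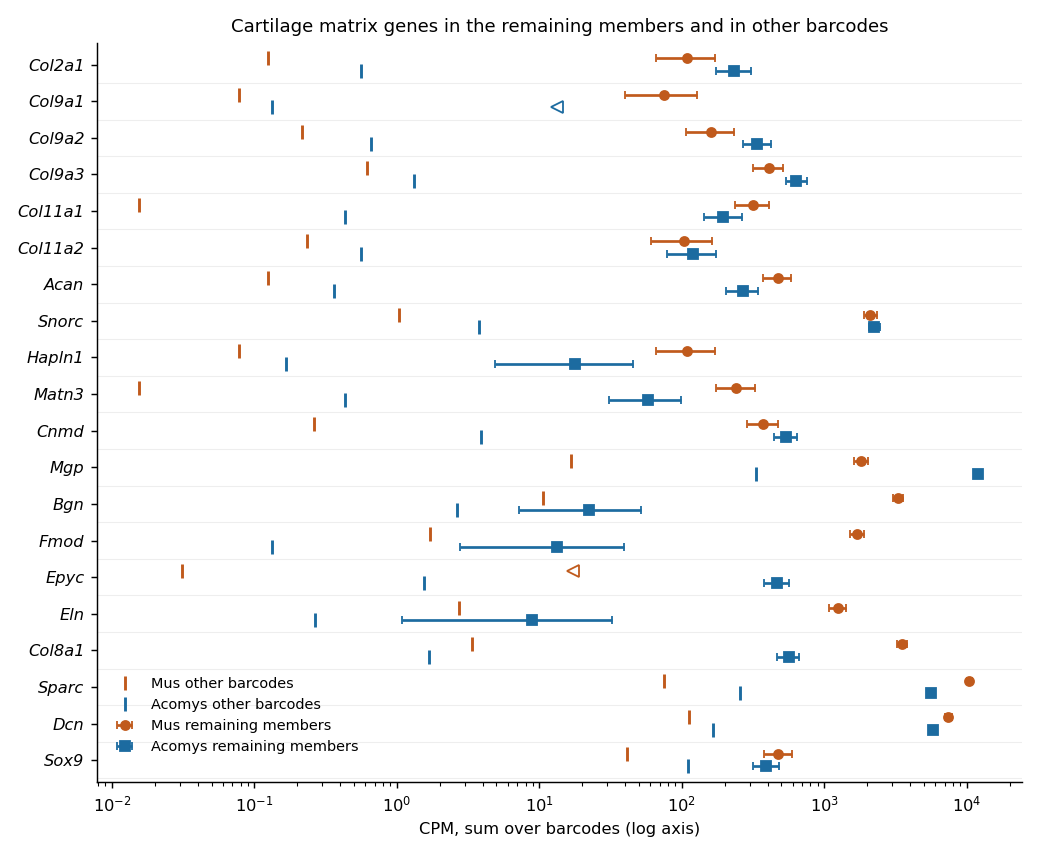
CPM (log axis) of 20 cartilage and matrix genes in remaining members, with circles for Mus, squares for Acomys and bars for exact 95% Poisson intervals; vertical ticks give other barcodes of the same library. Open triangles mark genes with 0 UMIs (Col9a1 in Acomys, Epyc in Mus), drawn at the level of 3 counts. Bgn, Fmod and Eln are widely separated, while Snorc, Col11a2 and Sox9 nearly coincide.

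Among other matrix proteins of cartilage the direction depended on the set of members. In the remaining members 7 of 15 measured genes were lower in Acomys by at least 2-fold and 3 were higher, with a median log2 ratio of -0.89, beside 26.3% lower, 22.5% higher and 0.07 for all genes. Over all members 5 were lower and 5 higher, with a median of 0.31, beside 41.9% lower, 13.5% higher and -0.56. Of the 7 lower genes in the remaining members, 1 was also at least 2-fold lower in other barcodes, beside 77.3% of all lower genes, and 2 went the opposite way. Of the 3 higher genes, 2 were also higher there, beside 52.5% of all higher genes. Ucma, a secreted Gla protein of cartilage, had 46 UMIs in 14 Mus members (264 CPM) and 0 in Acomys. It was 19.7-fold lower with 3 counts in place of the 0, while its ratio in other barcodes was 0.761. Matn3, a filament-forming matrilin, was at 241 and 57.9 CPM, and Crispld1 at 270 and 40.1 CPM. Fn1 (fibronectin) was at 682 and 80.2 CPM, and Sparc, a collagen-binding protein, at 10454 and 5637 CPM. Mgp went the other way, from 1812 CPM in 43 of 66 Mus members to 12005 CPM in 117 of 124 Acomys members, a ratio of 6.62 (5.89 to 7.47); in other barcodes the ratio was 19.9. Cnmd (chondromodulin, an inhibitor of vessel growth) was at 373 and 534 CPM, a ratio of 1.43 (1.05 to 1.97).

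Among transcription factors of the chondrocyte, Sox9 stood at like levels, with 476 CPM in 31 Mus members and 392 CPM in 52 Acomys members, a ratio of 0.823 (0.603 to 1.12). Of 11 measured factors, 5 were at least 2-fold lower and 3 higher, with a median log2 ratio of -0.92. Beside this, all genes gave 26.3% lower, 22.5% higher and 0.07. Over all members 6 of 13 were lower and 4 higher, with a median of -0.68, beside 41.9%, 13.5% and -0.56. Prrx1, a homeobox factor of limb and skull mesenchyme, was at 206 and 13.4 CPM, a ratio of 0.0647 (0.0127 to 0.205) against 0.248 in other barcodes. Zbtb20 was at 579 and 17.8 CPM, with 0.0971 as its ratio in other barcodes. Msx1, a homeobox factor of mesenchyme, was at 109 CPM in 15 members and 298 CPM in 49, a ratio of 2.74 (1.63 to 4.83).

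Genes of hypertrophic cartilage, the stage before bone forms, gave few UMIs. Col10a1, its collagen, had 1 UMI in Mus and 0 in Acomys remaining members, and Ihh, Sp7 and Runx2 had 0 in both. The Acomys list has 12 of the 16 symbols, without Spp1, Bglap, Bglap2 and Dmp1, which had 0 UMIs in Mus members. Of the 16, 2 were measured (Enpp1 and Ank, which supply and export pyrophosphate), and both were lower in Acomys by a median log2 ratio of -3.65 and also in other barcodes.

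Enzymes that build sulfated sugar chains gave few measured genes. Of 9 measured, 1 was at least 2-fold higher and 2 lower, with a median log2 ratio of 0.12. Beside this, all genes gave 22.5% higher, 26.3% lower and 0.07. Over all members 3 of 13 were higher and 6 lower, with a median of -0.03, beside 13.5%, 41.9% and -0.56. Xylt1, which starts the sugar chains of proteoglycans, had 26 UMIs in 16 Mus members (149 CPM) and 0 in Acomys. It was 11.2-fold lower with 3 counts in place of the 0, with 0.0927 as its ratio in other barcodes. Ugdh and Ugp2, which make the sugar precursor, stood at 80.3 and 86.0 CPM in Mus and 151 and 200.4 CPM in Acomys.

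For collagen processing and secretion, 8 of 19 measured genes were lower in Acomys by at least 2-fold and 1 was higher, with a median log2 ratio of -0.46, beside 26.3% lower among all genes. Over all members the list lay on the other side of all genes, with 6 of 23 lower, 4 higher and a median of 0.07, beside 41.9% lower and a median of -0.56. The gene that was higher was Pcolce2, an enhancer of procollagen cleavage, at 430 CPM in 30 Mus members and 1015 CPM in 89 Acomys members, a ratio of 2.36 (1.81 to 3.11). In other barcodes its ratio was 0.955. Lox (lysyl oxidase), which cross-links collagen and elastin, was at 166 and 8.91 CPM. Serpinh1 and Ppib, chaperones of collagen folding, had ratios of 0.927 (0.559 to 1.54) and 0.985 (0.797 to 1.22).

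Elastic fibre genes differed in both directions. Eln, the elastin monomer, was at 1239 CPM in 37 of 66 Mus members and at 8.91 CPM in 2 of 124 Acomys members, a ratio of 0.00719 (0.000865 to 0.0263). Its ratio in other barcodes was 0.0975, and in fibroblast-rich barcodes it stood at 191 CPM in Mus and was listed at 0 in Acomys. Mfap4, a microfibril-associated glycoprotein, was at 86.0 and 588 CPM, a ratio of 6.83 (4 to 12.6) against 12.5 in other barcodes. Ltbp4 and Ltbp3, which hold latent TGF-beta and help assemble fibres, had ratios of 2.73 (1.93 to 3.92) and 1.89 (1.20 to 3.04), and Efemp2 one of 1.62 (0.976 to 2.75). Fbn1, the microfibril backbone, was at 138 and 66.8 CPM. Of 13 measured genes, 3 were at least 2-fold higher (Mfap4, Ltbp4 and Mfap5) and 5 lower (Eln, Lox, Fbn1, Fbln1 and Mfap2). The median log2 ratio was 0.33, beside 22.5% higher, 26.3% lower and 0.07 for all genes. In other barcodes the 3 higher genes were also at least 2-fold higher. Of the 5 lower genes, 2 were also lower there and 1 went the opposite way. Over all members 6 of 15 were higher and 5 lower, with a median of 0.13, beside 13.5%, 41.9% and -0.56.

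Lipid genes did not share a direction. Of 15 measured, 7 were higher in Acomys by at least 2-fold and 4 were lower, with a median log2 ratio of 0.88. Beside this, all genes gave 22.5% higher, 26.3% lower and 0.07. Over all members 6 of 21 were higher and 10 lower, with a median of -0.23, beside 13.5%, 41.9% and -0.56. G0s2, an inhibitor of the main triglyceride lipase, was at 1038 CPM in 39 of 66 Mus members and 57.9 CPM in 11 of 124 Acomys members, a ratio of 0.0558 (0.0291 to 0.0978). In other barcodes G0s2 was 14.6-fold higher in Acomys, so the directions were opposite. Apoe, a lipid carrier, was in all 66 and all 124 members, at 12938 and 23872 CPM, with a ratio of 1.85 against 1.64 in other barcodes. Fabp5, a fatty acid carrier, was at 247 and 1211 CPM, but stood at 1264 and 3403 CPM in other barcodes. Subtracting 10% free RNA took the log2 ratio of Fabp5 from 2.28 to 4.75, and subtracting the share that would account for all keratinocyte-marker UMIs left 0 Fabp5 UMIs in both libraries, so no ratio could be given there. Plin1 and Adipoq, which define adipocytes, had 0 UMIs in the remaining members of both libraries. Fabp4, a fatty acid carrier of adipocytes and capillaries, was at 11.5 and 436 CPM in the remaining members and at 13034 CPM in the Mus endothelial-marker members. The adipocyte markers, Fabp4 among them, summed to 445 CPM in Acomys remaining members, with a UMI in 30 of 124. That lay below the 662 CPM of Acomys free RNA and the 679 CPM of other Acomys barcodes. In Mus the 3 sums were 11.5, 152 and 76.1 CPM.

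Among proteases and inhibitors, 3 of 13 measured genes were higher in Acomys by at least 2-fold and 3 were lower, with a median log2 ratio of -0.23. Beside this, all genes gave 22.5% higher, 26.3% lower and 0.07. Over all members 4 of 15 were higher and 5 lower, with a median of -0.11, beside 13.5%, 41.9% and -0.56. Mmp2, a gelatinase, was at 258 CPM in 24 Mus members and 868 CPM in 72 Acomys members, a ratio of 3.36 (2.42 to 4.76), while in other barcodes its ratio was 0.0845. Serpine2, an inhibitor of serine proteases, was at 235 and 1398 CPM, a ratio of 5.95 (4.29 to 8.45) against 9.18. Timp3, a matrix-bound inhibitor of metalloproteinases, was at 1279 CPM in 45 members and 98.0 CPM in 20, a ratio of 0.0766 (0.0471 to 0.119) against 0.273. Cst3 (cystatin C, an inhibitor of cathepsins) was in every remaining member but its level differed little, at 23530 and 19553 CPM, against 2022 and 2159 CPM in other barcodes. Timp2 had a ratio of 0.925 (0.735 to 1.17).

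Of 37 measured ligands, receptors and antagonists, 20 were lower in Acomys by at least 2-fold and 6 were higher, with a median log2 ratio of -1.46. Beside this, all genes gave 26.3% lower, 22.5% higher and 0.07. Of the 20 lower genes, 16 were also lower in other barcodes, beside 77.3% of all lower genes. Over all members 24 of 43 were lower and 10 higher, with a median of -1.36, beside 41.9%, 13.5% and -0.56. Wnt antagonists were abundant in both libraries. Wif1, which binds Wnt ligands, was at 5861 CPM in 58 Mus members and 3295 CPM in 105 Acomys members. Notum, which removes the lipid from Wnt, was at 149 and 610 CPM, a ratio of 4.09 (2.68 to 6.49), and Dkk3 at 419 and 1020 CPM, a ratio of 2.44 (1.86 to 3.22); in other barcodes these ratios were 6.19 and 6.02.

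Growth factor genes of the members moved in both directions. Bmp5, a BMP ligand known for its part in shaping the mouse ear, was at 229 CPM in 29 Mus members and 22.3 CPM in 5 Acomys members, a ratio of 0.0971 (0.0299 to 0.246). Gdf10 was at 11.5 CPM (1 member) and 142 CPM (21 members), and Tgfb3 at 143 and 236 CPM. Among FGF receptors, Fgfr3, a brake on cartilage growth, was at 212 CPM in 23 Mus members and 4.45 CPM in 1 Acomys member, with 0.0863 as its ratio in other barcodes. Fgfr1 was at 212 and 432 CPM, a ratio of 2.04 (1.38 to 3.06). Igfbp5, which binds insulin-like growth factors, had 117 UMIs in 15 Mus members (671 CPM) and 0 in Acomys. It was 50.2-fold lower with 3 counts in place of the 0, with 0.0573 as its ratio in other barcodes. Itga10, the collagen-binding integrin chain of chondrocytes, had 13 UMIs in 12 Mus members and 0 in Acomys. S100b, a calcium-binding protein often used to mark chondrocytes, had 56 UMIs in 22 Mus members (321 CPM) and 0 in Acomys. It was 24.0-fold lower with 3 counts in place of the 0, with 0.127 as its ratio in other barcodes. Its relative S100a1 was at 447 and 561 CPM, a ratio of 1.25 (0.938 to 1.69). Clu (clusterin, an extracellular chaperone) was at 3217 CPM in 51 of 66 and 6199 CPM in 118 of 124 members.

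Genes of hypoxia and glycolysis, stress, complement and the cell cycle gave smaller sets. In the remaining members all genes gave 22.5% at least 2-fold higher in Acomys, 26.3% lower and a median log2 ratio of 0.07. Over all members these values were 13.5%, 41.9% and -0.56. Of 15 hypoxia and glycolysis genes, 6 were higher in Acomys by at least 2-fold and 2 were lower, with a median log2 ratio of 0.12; over all members 3 of 20 were higher and 7 lower, with a median of -0.40. Aldoc, a glycolytic aldolase, was at 17.2 CPM in 3 Mus members and 191 CPM in 34 Acomys members, a ratio of 11.1 (3.56 to 56.1), against 0.369 in other barcodes. Of 18 stress and immediate early genes, 4 were higher and 4 lower with a median of 0.11; over all members 5 of 24 were higher and 11 lower, with a median of -0.87. Fos had 1 UMI in the remaining members of each library. Sod3, the secreted superoxide dismutase, was at 551 and 1091 CPM, and Mt2, a metallothionein, at 900.4 and 62.3 CPM with a like ratio in other barcodes (0.0692 and 0.0456). Of 8 complement and inflammation genes, 3 were higher and 2 lower with a median of 0.19, and over all members 1 was higher and 5 lower, with a median of -1.16. C4b, a complement factor, had 75 UMIs in 37 Mus members (430 CPM) and 0 in Acomys. It was 32.2-fold lower with 3 counts in place of the 0, with 0.064 as its ratio in other barcodes.

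Mitotic transcripts of the remaining members came mostly from a single barcode in each library. Cell cycle genes had 502 UMIs in Mus and 235 in Acomys in all. Of 189 UMIs of 8 mitotic genes in Mus, 172 were in 1 member, and of 109 in Acomys, 85 were in 1 member. The Mus member was the largest, with 31316 UMIs (12.1% of all UMIs of the 66), 442 keratinocyte-marker UMIs per 10000 and rule genes at 15.97 per 10000. Of 16 measured cell cycle genes, 8 were lower in Acomys and 0 higher, with a median log2 ratio of -1.02; over all members 4 of 17 were lower and 3 higher, with a median of -0.03. Without members over 10000 UMIs the median of the remaining members was -2.43, and with the rule raised to 20 per 10000 it was 1.69. Cdkn1c, a cell cycle inhibitor of cartilage, was in 29 Mus and 30 Acomys members, at 470 and 187 CPM.

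The genes of the largest ratios in the remaining members, were picked for exceeding the ratio in other barcodes by at least 2-fold, and most were shifted the same way there. Of 12 named for being higher in Acomys, 11 were also at least 2-fold higher in other barcodes, and of 12 named for being lower, 11 were also lower there. Pcbd1, a recycling enzyme of the biopterin cofactor, was at 17.2 CPM in 3 Mus members and 859 CPM in 83 Acomys members, a ratio of 49.95 (16.8 to 244) against 2.005 in other barcodes. Il17d, a cytokine of the interleukin 17 family, was at 11.5 CPM in 2 members and 276 CPM in 40, a ratio of 24.1 (6.39 to 203) against 2.68. Gstm1, a glutathione transferase, was at 298 and 3117 CPM, a ratio of 10.5 against 2.10; it has close paralogs, among which reads could have been split. Penk, the precursor of enkephalins, had 71 UMIs in 29 Mus members and 0 in Acomys. It was 30.5-fold lower with 3 counts in place of the 0, with 0.116 as its ratio in other barcodes. Smoc2, a matrix protein related to Sparc, was at 889 CPM in 44 members and 8.91 CPM in 2, a ratio of 0.0100 against 0.0250.

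Within each library the remaining members ranged widely in cartilage transcripts. In Mus, 37 members held at least 10 UMIs of the 18 other cartilage markers, 26 held 1 to 9 and 3 held none; in Acomys the counts were 35, 75 and 14. These classes follow UMI totals in part, with medians of 3265, 1877 and 1154 UMIs in Mus and 2738, 2035 and 1719.5 in Acomys. Genes outside the marker list differed between the classes too. In Mus, Cytl1 was at 51112 CPM where the markers were highest and 14310 CPM in the middle class, and Wif1 at 8575 and 1910 CPM. Prg4 (lubricin, the lubricant of joint and cartilage surfaces) ran the other way, at 781 and 3041 CPM. In Acomys, Cytl1 did not fall along these classes, at 18776, 23279 and 32000 CPM. There Dcn was at 2912, 6774 and 10319 CPM, and Mgp at 7309, 14386 and 12789 CPM. Cytl1 is a rule gene, and a shallow barcode needs a higher share of it to enter, so its levels by class are a description only.

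Pairs of genes were also counted within the members. Snorc and Dcn were both present in 32 Mus and 63 Acomys remaining members, with Snorc alone in 13 and 12 and Dcn alone in 19 and 43. Across members, the log levels of Snorc and Dcn correlated at r = -0.35 in Mus (66 barcodes) and -0.38 in Acomys (124 barcodes). Those of Cytl1 and Snorc correlated at 0.58 and 0.01. These are descriptions over barcodes of a library, which share depth and free RNA. Gsn (gelsolin, an actin-severing protein), which no list held, was in 65 of 66 and 124 of 124 members.

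**Figure D5:**
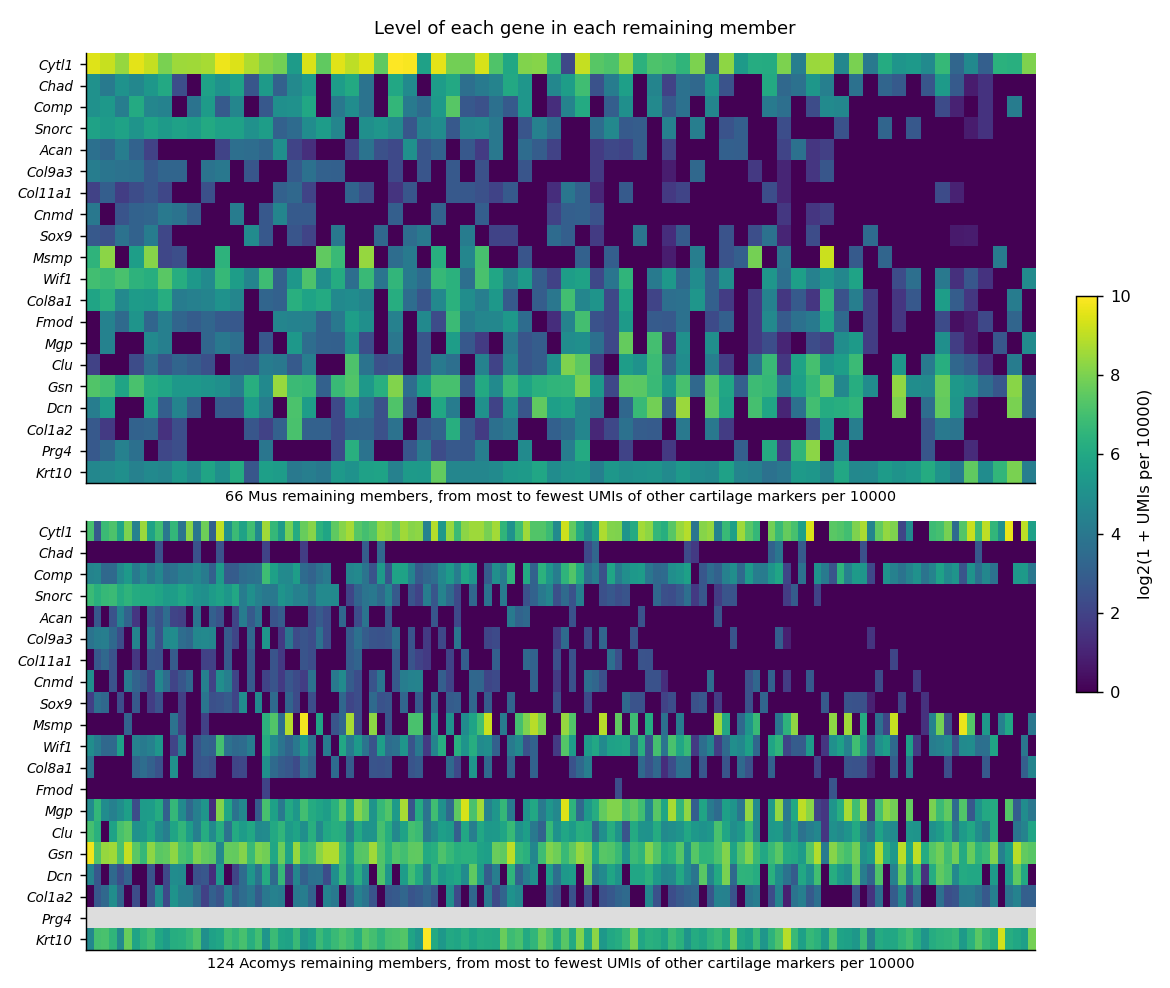
Each column is a remaining member, 66 in Mus (top) and 124 in Acomys (bottom), ordered by its UMIs of the 18 other cartilage markers per 10000; colour gives log2(1 + UMIs per 10000) of each gene. Snorc, Acan, Col9a3, Col11a1, Cnmd and Sox9 help set the order and fade to the right by construction. Chad and Fmod fill much of the Mus panel and little of the Acomys panel, Dcn grows to the right in Acomys, and grey marks Prg4, which the Acomys annotation does not list by that symbol.

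Against the fibroblast-rich barcodes of the same library, the remaining members differed in both directions. The Acomys set was 24 barcodes, 3 of which held at least 10 UMIs of the other cartilage markers, so its cartilage levels rest on few barcodes. Here 12.7% of 3899 genes in Mus and 13.6% of 3539 in Acomys were at least 2-fold higher in the members, and 14.2% and 8.62% lower. Of 12 measured collagen genes in Mus, 7 were higher and 2 lower, and of 9 in Acomys, 4 were higher and 3 lower. Proteoglycan genes were higher in 10 and lower in 4 of 17 in Mus, and higher in 3 and lower in 3 of 11 in Acomys (median log2 ratios 1.84 and -0.12). Other cartilage matrix genes were higher in 11 and lower in 3 of 16 in Mus, and higher in 3 and lower in 4 of 11 in Acomys (2.88 and -0.39). Elastic fibre genes were higher in 2 and lower in 11 of 16 in Mus, and higher in 0 and lower in 8 of 11 in Acomys. Eln was an exception in Mus, at 1239 CPM in the members and 191 CPM in the fibroblast-rich barcodes. Acan was at 470 and 0 CPM in Mus and at 267 and 49.3 CPM in Acomys, where the last value was 2 UMIs.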

How the data were processed

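Both libraries were 10x Genomics 3′ single-cell libraries of adult ear skin. The deposited matrices hold raw UMI counts per gene and barcode for 737280 listed barcodes each. Per the submitters' processing notes they were made with Cell Ranger 2.2.0, and mm10 is the build named there. The Acomys gene list carries identifiers of its own, and the genome and annotation behind it are not given in the sources used here. Symbols were matched ignoring case: 15710 matched directly and 360 through older symbols in a RefSeq table of GRCm38.p6.

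Members, gene lists and markers were chosen with earlier results of these data known, and the endothelial division after seeing the values. UMIs were summed over barcodes and scaled to the shared symbols. Levels carry exact Poisson intervals, ratios exact conditional binomial intervals and shares Clopper-Pearson intervals, at 95% and for counting error only. Log2 ratios added 0.5 counts. Where a library had 0 UMIs over the group, the fold used 3 counts in place of the 0, which is no interval limit. Doublets were kept; the highest Scrublet scores, at 0.8% per 1000 barcodes, held 8 of 167 Mus and 5 of 126 Acomys members. Shares at equal depth used 1000 UMIs per barcode.

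Named genes were the rule genes and cartilage markers; up to 4 of the highest genes of each list and those at least 4-fold apart with an interval clear of 2-fold; the 12 leading genes of each library and of both; and the 12 highest and 12 lowest ratios at least 2-fold beyond those in other barcodes. Col11a2, Fbn1, Fbln1, Mfap2, Mfap5, S100a1, Serpinh1, Gsn, Fos and genes at or near 0 were named after their values were seen. With 1 library per species no test was made. The ratio and interval steps were checked on simulated counts. Alternatives varied the limits, rule genes, doublets, scaling, free RNA and the measured threshold. Python 3.11.15, numpy 2.4.6, scipy 1.17.1, pandas 2.3.3, scanpy 1.11.5 and matplotlib 3.10.9 were used.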

Additional observations from a re-analysis of the deposited data

Results flagged for a closer look

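Barcodes below the 1000-UMI limit were not analysed above, yet 16 of 5899 Mus and 24 of 6135 Acomys barcodes from 500 to under 1000 UMIs met the limits on Cytl1, Chad and Comp. Of these, 10 in Mus and 13 in Acomys had a UMI of another cartilage marker.

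Genes listed in a single annotation entered no comparison between the libraries. In the Mus remaining members these included Trf (transferrin, an iron carrier) at 4966 CPM, Prg4 at 1652 CPM in 29 of 66 members, Mia, a secreted protein of cartilage, at 717 CPM in 43 members, and the fibril collagen Col27a1 at 138 CPM. In other Mus barcodes they stood at 4.19, 0.698, 0.698 and 0.76 CPM.

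Genes known by an identifier alone led the Acomys remaining members in the same way. ACOCA10068_EIv1_0131680 was at 1679 CPM in 103 of 124 members, ACOCA10068_EIv1_0100490 at 445 CPM in 35, ACOCA10068_EIv1_0041830 at 410 CPM in 53 and ACOCA10068_EIv1_0102090 at 138 CPM in 27. Whether any of them corresponds to Prg4, Trf, Mia or Col27a1 was not tested.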

How the results depend on the processing

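No paired analysis was possible because each species had 1 library, and for the same reason no library could be left out. Members numbered 167 in Mus (66 remaining) and 126 in Acomys (124 remaining). At a minimum of 2000 UMIs, 43 remained in Mus and 70 in Acomys, of 70 Acomys members in all. With Chad and Comp alone as rule genes the members were 38 and 65, none of them endothelial-marker. Then 582 genes were lower in Acomys over all members and 582 over the remaining members, against 2698 and 1033, and 511 in Mus and 456 in Acomys were higher than in other barcodes, against 1788 and 712. Every member exceeded 50 keratinocyte-marker UMIs per 10000, so leaving such barcodes out gave 0 members and 0 remaining members in each library, and no comparison under that setting could be made. Measured from 30 CPM and 20 UMIs, fewer genes were tested: 497 were higher and 1581 lower in Acomys over all members, 490 and 456 over the remaining members, 55 list genes were lower, and 1059 in Mus and 350 in Acomys were higher than in other barcodes. Of 172 counts recomputed, 150 stayed within 1.5 times.

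Of 1429 list medians recomputed, 6 that first lay at least 1 from 0 on the log2 scale changed sign. Sign changes of medians that lay nearer to 0 were not counted. The cell cycle median of the remaining members was -1.02, and became 1.69 with rule genes at 20 per 10000, 1.79 with Cytl1 alone and 1.67 with endothelium markers counted from 1 UMI; 1 barcode held most of its Mus mitotic UMIs. Over all members, Chad and Comp alone turned the collagen median to -0.35 and the complement median to 0.13, and subtracting free RNA at the keratinocyte-marker ceiling turned the proteoglycan median to 0.16; the cause was not tested. With Chad and Comp alone, the log2 ratio over all members became -0.14 for Cnmd, -0.061 for Col11a2, -0.59 for Col6a1, -0.35 for Col6a2, -0.62 for Dcn, 5.05 for Fabp4, -0.23 for Snorc, -0.49 for Sox9 and 1.97 for Vwf; this rule keeps no endothelial-marker member. At the ceiling 0 UMIs of Fabp5 and Vwf were left in the remaining members of both libraries, so no ratio is given. Scaling to all genes moved the median of all genes over all members by 0.10 on the log2 scale, from -0.56 to -0.46. It changed the sign of no list median that lay at least 1 from 0. Leaving out members over 10000 UMIs, counting endothelium markers from 1 UMI and the ceiling were chosen after seeing the data.

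Counting depth limits the low genes: 1 UMI is worth 5.73 CPM in the Mus and 4.45 CPM in the Acomys remaining members, and with 66 and 124 barcodes from 1 library each, spread between animals is unknown.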
